A study of Mus musculus with 16 samples.

Results

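Enteroendocrine hormones are the peptides and amines that scattered endocrine cells of the gut lining release when food and microbial products reach them. The 10 genes described here are Gip, Cck, Sct, Gcg, Pyy, Nts, Insl5, Ghrl and Sst, which encode peptide hormones, and Tph1, which encodes the enzyme that makes serotonin in the gut. They were taken from the 21965 genes of a count table by matching each symbol to its Ensembl identifier, and all 10 were found once. Of these, 9 were among the 13811 genes with enough counts to be tested, and Insl5 was not.

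The RNA came from a short segment of the terminal ileum of 16 male C57BL/6 mice, with 1 library per mouse. The 4 groups were WT mice pair-fed a liquid diet without ethanol (WT PF, n = 4), fat-1 mice on that diet (fat-1 PF, n = 4), WT mice on the ethanol diet (WT EtOH, n = 3) and fat-1 mice on the ethanol diet (fat-1 EtOH, n = 5). The labels write the second genotype as Fat1+/-. It is heterozygous for a worm fatty acid desaturase transgene that turns n6 into n3 polyunsaturated fatty acids, it is active in all tissues and not in enteroendocrine cells alone, and WT littermates lack it. Ethanol was given in steps up to 6% for the last 3 weeks, to young adult mice, and the labels give no age. Pair-fed mice were given the same calories, with maltose dextrin in place of ethanol. Between 8422645 and 11438539 reads were counted per mouse.

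Enteroendocrine cells arise from crypt progenitors that switch on the transcription factor Neurog3, and what they secrete depends on where along the gut they sit. Gip, Cck, Ghrl and Sct are typical of the duodenum and jejunum, Nts, Gcg and Pyy of the ileum and colon, and Insl5 of the colon and rectum, while Sst and serotonin are made along the whole tube. Gip and the Gcg product GLP-1 are incretins, which raise insulin release after a meal. Cck empties the gallbladder and slows the stomach, secretin drives bicarbonate secretion, Pyy and Nts slow transit and affect appetite and fat uptake, ghrelin and Insl5 favour eating, and somatostatin restrains the other endocrine cells.

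Some libraries stood apart from the label ileum. Fabp6, the ileal bile acid carrier, stood at 26.1 and 3.31 CPM in fat-1 PF mice 2 and 4, where CPM are read counts divided by the scaled library size, as edgeR computes them, and at 845 CPM or more in 12 of the other 14 mice. The exceptions were fat-1 EtOH mice 3 and 4, with 118 and 586 CPM. In these 2 mice Car1, a carbonic anhydrase of the colon, reached 11157 and 12208 CPM, and in WT EtOH mouse 2 it reached 4041 CPM, against 79.1 CPM or less in the other 13 mice. Of 10 listed genes of the proximal small intestine 7 were lower in every EtOH mouse than in every PF mouse, as were 4.66% of all genes tested, and Onecut2, Slc2a2 and Cybrd1 overlapped. Gata4, a transcription factor of the duodenum and jejunum, ran from 25.6 to 156 CPM in PF mice and from 0 to 1.11 CPM in EtOH mice. The libraries are numbered with the PF mice first and the EtOH mice after them, so that any order of handling those numbers hold cannot be told apart from diet. The labels give no position along the ileum for any mouse, and the part that position has in the differences between the diets was not tested. The log2 fold change or adjusted p of each tested member in fat-1 mice is given with and without the 5 mice named, but the split of the proximal genes by diet runs through the other 11 mice as well.

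**Figure D1:**
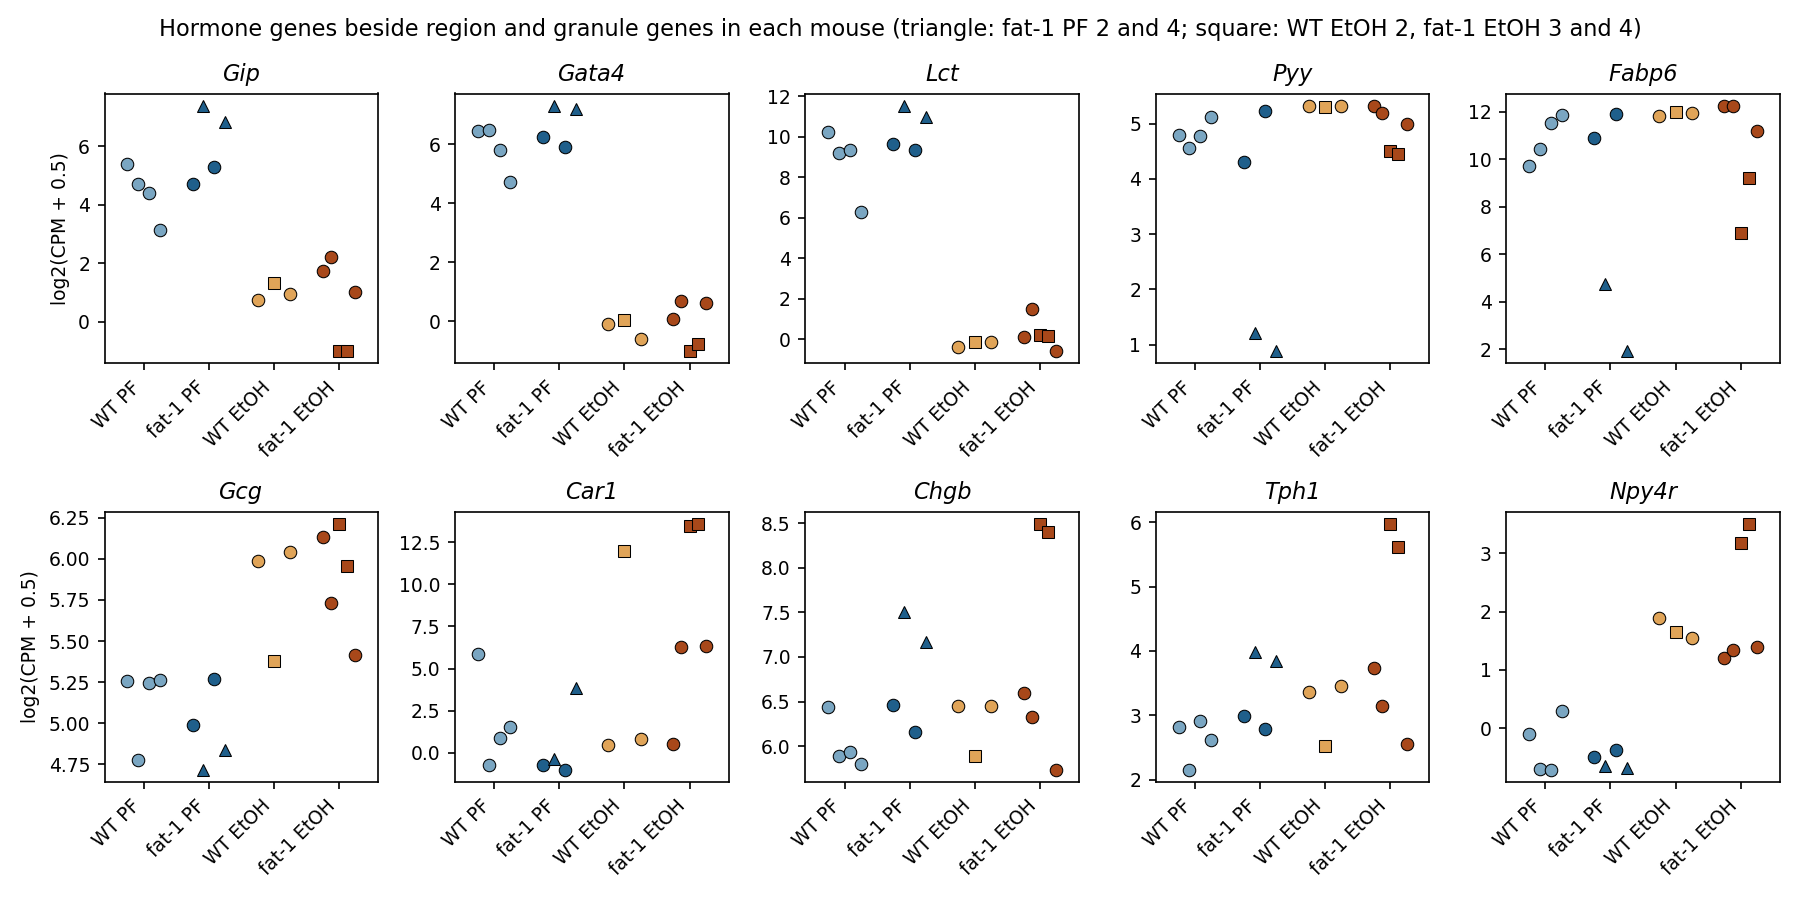
Level of Gip, Gcg, Pyy and Tph1 in each mouse beside genes of the proximal small intestine (Gata4, Lct), the ileum (Fabp6), the large intestine (Car1), the granule gene Chgb and the receptor gene Npy4r, as log2(CPM + 0.5) on an axis of its own for each gene. Points are single mice in 4 groups, triangles are fat-1 PF mice 2 and 4, and squares are WT EtOH mouse 2 and fat-1 EtOH mice 3 and 4. Gata4 is between 25.6 and 156 CPM in the PF mice and at 1.11 CPM or less in the EtOH mice.

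The 250 bases upstream of the transcription start of the 4 genes that passed the test of diet are shown because 3 of them moved together and the other moved the opposite way. They are RefSeq sequences of GRCm38.p6, 5′ to 3′ on the strand of the gene, at chr11:96024295-96024544 (plus strand, Gip), chr9:121495695-121495944 (minus strand, Cck), chr6:113719912-113720161 (minus strand, Ghrl) and chr2:62483654-62483903 (minus strand, Gcg). Capitals mark AGATAA or TGATAA on either strand, the letters that GATA factors bind, and no other motif searched was present in these 4.
Gip: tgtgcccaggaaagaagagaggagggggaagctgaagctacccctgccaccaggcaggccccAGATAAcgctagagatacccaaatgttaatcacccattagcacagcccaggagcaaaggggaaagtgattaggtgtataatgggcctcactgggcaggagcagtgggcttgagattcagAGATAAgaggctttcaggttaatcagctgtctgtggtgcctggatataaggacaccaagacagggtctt
Cck: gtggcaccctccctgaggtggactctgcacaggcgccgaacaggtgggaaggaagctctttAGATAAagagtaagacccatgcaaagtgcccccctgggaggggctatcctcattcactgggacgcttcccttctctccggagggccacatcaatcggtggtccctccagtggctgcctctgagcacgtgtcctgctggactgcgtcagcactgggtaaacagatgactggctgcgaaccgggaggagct
Ghrl: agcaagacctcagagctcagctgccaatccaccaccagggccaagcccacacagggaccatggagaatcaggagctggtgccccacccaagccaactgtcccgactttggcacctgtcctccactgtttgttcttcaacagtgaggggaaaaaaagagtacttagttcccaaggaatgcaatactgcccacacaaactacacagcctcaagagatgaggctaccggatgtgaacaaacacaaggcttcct
Gcg: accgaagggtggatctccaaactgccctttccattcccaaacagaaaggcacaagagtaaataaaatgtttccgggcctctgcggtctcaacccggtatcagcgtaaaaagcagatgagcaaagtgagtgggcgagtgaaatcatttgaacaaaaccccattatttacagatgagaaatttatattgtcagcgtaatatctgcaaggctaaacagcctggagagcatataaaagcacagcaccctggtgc

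The letters AGATAA occurred in the Gip window 188 and 69 bases before the start and in the Cck window 189 bases before it. Ghrl and Gcg held neither form. Of 32817 windows of this length in the RefSeq table, 16.6% held at least 1 of the 2 forms and 2.72% held at least 2 of them. All 10 genes had a window. Among the other members Nts held AGATAA once, and Insl5 held it 3 times in a stretch that GENCODE places inside the transcript, and Sct, Pyy, Sst and Tph1 held none. The CDX letters TTTATGG and TTTACGG, in 3.21% of all windows, occurred in none of the 10. The cyclic AMP response letters TGACGTC, in 2.78% of all windows, occurred in Sst, on both strands at overlapping positions that GENCODE also places inside the transcript. These are matches of letters and not measured sites.

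Of the 4 hormones typical of the upper gut, Gip, Cck and Ghrl were lower with ethanol in fat-1 mice, and Sct did not pass (log2 fold change -0.34 ± 0.18, SE, edgeR adjusted p = 0.150). Of those of the lower gut, Gcg was higher. Against their pair-fed controls, fat-1 mice on ethanol held 50.3-fold less Gip, 9.81-fold less Cck and 7.99-fold less Ghrl, and 1.94-fold more Gcg (edgeR quasi-likelihood test, Benjamini-Hochberg adjusted p over all genes = 4.6e-04, 3.4e-04, 0.0062 and 0.0017). These were 4 of the 9 members tested, and 37.4% of all genes tested passed in this comparison, 18.7% higher and 18.8% lower. DESeq2 called these 4 with Sst and Tph1, among 40.2% of all genes, and limma voom called them with Pyy, among 26.8%. Averaged over the 2 genotypes, the EtOH mice differed from the PF mice in the same 4 members and in the same directions, where 35.9% of all genes passed, 18.3% higher and 17.6% lower. In WT mice none of the 9 passed by edgeR, where 0.0796% of all genes did (0.00724% higher and 0.0724% lower) and 1953 genes had an unadjusted p under 0.05. DESeq2 called 1 member in WT mice, with 1.86% of all genes, and limma voom called 2 of the 9, near the 20.7% of all genes that it called. When the libraries were scaled by 8 granule and other general genes of endocrine cells in place of all genes, calls over all genes fell from 5170 to 248, or 1.8%, and of the members Cck alone passed in fat-1 mice (log2 fold change -3.01, edgeR adjusted p = 0.0016), with Gip at -5.10 (adjusted p = 0.0544), Ghrl at -2.47 (0.295) and Gcg at 0.82 (0.454). These 8 genes summed to 700 and 712 CPM in fat-1 EtOH mice 3 and 4 and to between 164 and 379 CPM in the other mice. This scaling therefore lowers every gene in those 2 mice against the rest of their group. In whole tissue, fewer cells of a type and less RNA in each cell cannot be told apart. Ethanol comparisons within a genotype use separate mice, whereas the averaged comparison uses all of these mice again.

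Gip is in 7 exonic blocks at chr11:96024545-96030831 on the plus strand of GRCm38. In WT PF mice 1 to 4 it stood at 41.3, 25.8, 20.7 and 8.21 CPM, and in fat-1 PF mice 1 to 4 at 25.7, 167, 38.3 and 114 CPM. In WT EtOH mice 1 to 3 it stood at 1.16, 1.99 and 1.43 CPM, and in fat-1 EtOH mice 1 to 5 at 2.85, 4.17, 0, 0 and 1.54 CPM. Every EtOH mouse was below every PF mouse, and the 2 mice without a Gip read were those with the most Car1. With 0 counts, up to 0.246 and 0.268 CPM is allowed in these 2 libraries by counting error alone. The mean was 24.0 ± 13.7 CPM in WT PF and 1.53 ± 0.424 CPM in WT EtOH mice (SD, n = 4 and 3), and 86.2 ± 66.5 and 1.71 ± 1.82 CPM in fat-1 PF and fat-1 EtOH mice (SD, n = 4 and 5). The log2 fold change with ethanol was -3.97 ± 1.03 (SE) in WT mice (adjusted p = 0.166) and -5.65 ± 0.86 in fat-1 mice. In WT mice the test gave an adjusted p of 0.0446 with DESeq2, 0.0189 with limma voom and 0.0267 when only the WT mice were fitted, and between 0.0973 and 0.523 when any 1 of the 16 mice was left out. Without the 5 mice that stood apart, the log2 fold change was -4.18 in WT mice (adjusted p = 0.0336) and -3.46 in fat-1 mice (adjusted p = 0.0161).

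Gip, the incretin of the upper gut, ran with most but not all of the listed genes of the proximal small intestine. Among the PF mice WT PF 4 held the least Gip and the least Gata4 (25.6 CPM), and fat-1 PF 2 and 4 held the most Gip and the most Gata4 (156 and 143 CPM). The other listed genes had the same extremes except Cybrd1. It went the other way, at 1.82 and 3.19 CPM in fat-1 PF 2 and 4 and between 3.71 and 6.68 CPM in the other PF mice. The 3 genes whose log2 level over the 16 mice was nearest to that of Gip, after centring, were Apoc3, Adh6a and Cyp3a11, with root mean square differences of 0.39, 0.46 and 0.58, where Gip itself had an SD of 2.86. Of 10 proximal genes listed, 9 were lower with ethanol in fat-1 mice and 9 in the averaged comparison, and 3 (Gata4, Lct and Cyp2b10) were lower in WT mice. Of all genes tested, 18.8%, 17.6% and 0.0724% were lower in these 3 comparisons. Their summed level ran from 1985 CPM upward in the PF mice and from 28.2 to 468 CPM in the EtOH mice, and none of the 10 was at 0 in a whole group. Of 6 ileal genes of bile acid handling 1 was higher in the averaged comparison, where 18.3% of all genes were higher, a share that the ileal genes did not exceed. Of 9 genes of the large intestine 5 were tested and 4 were higher. Aqp8 and Scnn1b of this list had enough counts to be tested through EtOH mice alone. Car1, Aqp8 and Scnn1b were highest in WT EtOH mouse 2 and fat-1 EtOH mice 3 and 4. The count of 4 can therefore not be set against the share of all genes. The part of these genes in the change of Gip was not tested.

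Cck was the only other member below its PF range in all 8 EtOH mice. It stood at 10.1, 7.81, 6.998 and 4.36 CPM in WT PF, 11.02, 35.0, 7.11 and 44.8 CPM in fat-1 PF, 3.94, 3.04 and 3.86 CPM in WT EtOH and 2.66, 3.23, 1.48, 1.96 and 3.08 CPM in fat-1 EtOH mice. The gap between the diets was narrow, since the lowest PF mouse, WT PF 4, lay close to the highest EtOH mouse, WT EtOH 1. The log2 fold change with ethanol was -3.29 ± 0.47 (SE) for fat-1 animals, against -1.01 ± 0.53 for WT animals (edgeR adjusted p = 0.406). Without fat-1 PF mice 2 and 4 the change in fat-1 mice was -1.86 (adjusted p = 0.0079), and without all 5 mice that stood apart it was -1.59 (adjusted p = 0.0161). The difference of the 2 ethanol effects on Cck was -2.29 ± 0.69 on the log2 scale and did not pass (unadjusted p = 0.0051, adjusted p = 0.595), and 0% of all genes passed that test of genotype by diet.

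Ghrl, which encodes ghrelin, a hormone made mainly in the stomach, passed with all mice and not without fat-1 PF mice 2 and 4. Its levels were 5.46, 4.41, 1.78 and 2.81 CPM in WT PF, 6.36, 26.1, 5.60 and 19.8 CPM in fat-1 PF, 2.60, 2.10 and 2.77 CPM in WT EtOH and 3.04, 3.91, 0.082, 0.178 and 1.80 CPM in fat-1 EtOH mice. The fat-1 groups did not overlap, and the WT groups did. The 2 highest values were those of fat-1 PF mice 2 and 4 and the 2 lowest those of fat-1 EtOH mice 3 and 4. The log2 fold change with ethanol in fat-1 mice was -3.00 ± 0.73 (SE) with all mice, -1.72 without fat-1 PF mice 2 and 4 (edgeR adjusted p = 0.162) and -1.02 without all 5 mice that stood apart (adjusted p = 0.122). Averaged over genotypes it was -1.76 ± 0.56 (adjusted p = 0.0253), and the adjusted p rose to between 0.054 and 0.0584 when WT PF mouse 1, fat-1 PF mouse 2 or any of the 3 WT EtOH mice was left out. The exons of Ghrl overlap those of 2 antisense genes that have no row in the table, and the strand setting of the counting is not given in the sources used here, so reads of these genes cannot be told apart from those of Ghrl. The summed level of the stomach genes was highest in WT PF mouse 3 (16.1 CPM), where Ghrl was at its lowest PF value, and next highest in fat-1 PF mice 2 and 4 (6.60 and 4.17 CPM), where Ghrl was highest. In these 2 mice most of that sum was Gkn3, at 5.76 and 3.07 CPM, and Gkn1, Gkn2, Tff1, Muc5ac and Gast were at 0. Their part in the level of Ghrl was not tested.

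Gcg, the precursor of GLP-1 and of glucagon, was higher in each of the 8 EtOH mice than in any PF mouse. It stood at 37.8, 26.9, 37.4 and 37.8 CPM in WT PF, 31.3, 25.8, 38.0 and 28.1 CPM in fat-1 PF, 63.0, 41.1 and 65.4 CPM in WT EtOH and 69.6, 52.6, 73.6, 61.6 and 42.2 CPM in fat-1 EtOH mice. Gcg varied between 41.1 and 73.6 CPM among the EtOH mice, and fat-1 PF mice 2 and 4 lay within the range of the other PF mice or just below it. The change was 1.94-fold in fat-1 mice (log2 0.96 ± 0.19, SE) and 1.77-fold averaged over genotypes (log2 0.83 ± 0.14, edgeR adjusted p = 7.7e-04). In WT mice the log2 fold change was 0.69 ± 0.21 (adjusted p = 0.187), and it passed with limma voom (adjusted p = 0.0055), with the WT mice alone (0.0434) and without the 5 mice (0.0408). In fat-1 mice the change without the 5 mice was 0.68 (adjusted p = 0.0594). Gip, Cck and Gcg were the 3 members whose diets did not overlap over all 16 mice, and 7.79% of all genes tested had diets that did not overlap, 3.13% higher and 4.66% lower. Gcg is also made in the pancreatic islet. The insulin gene Ins1 had no count in any mouse and Ins2 had 1 count, in WT PF mouse 3, and 10 pancreas genes summed to at most 7.63 CPM outside WT PF mouse 3, with 27.1 CPM. None of the stomach or pancreas genes had enough counts to be tested.

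**Figure D2:**
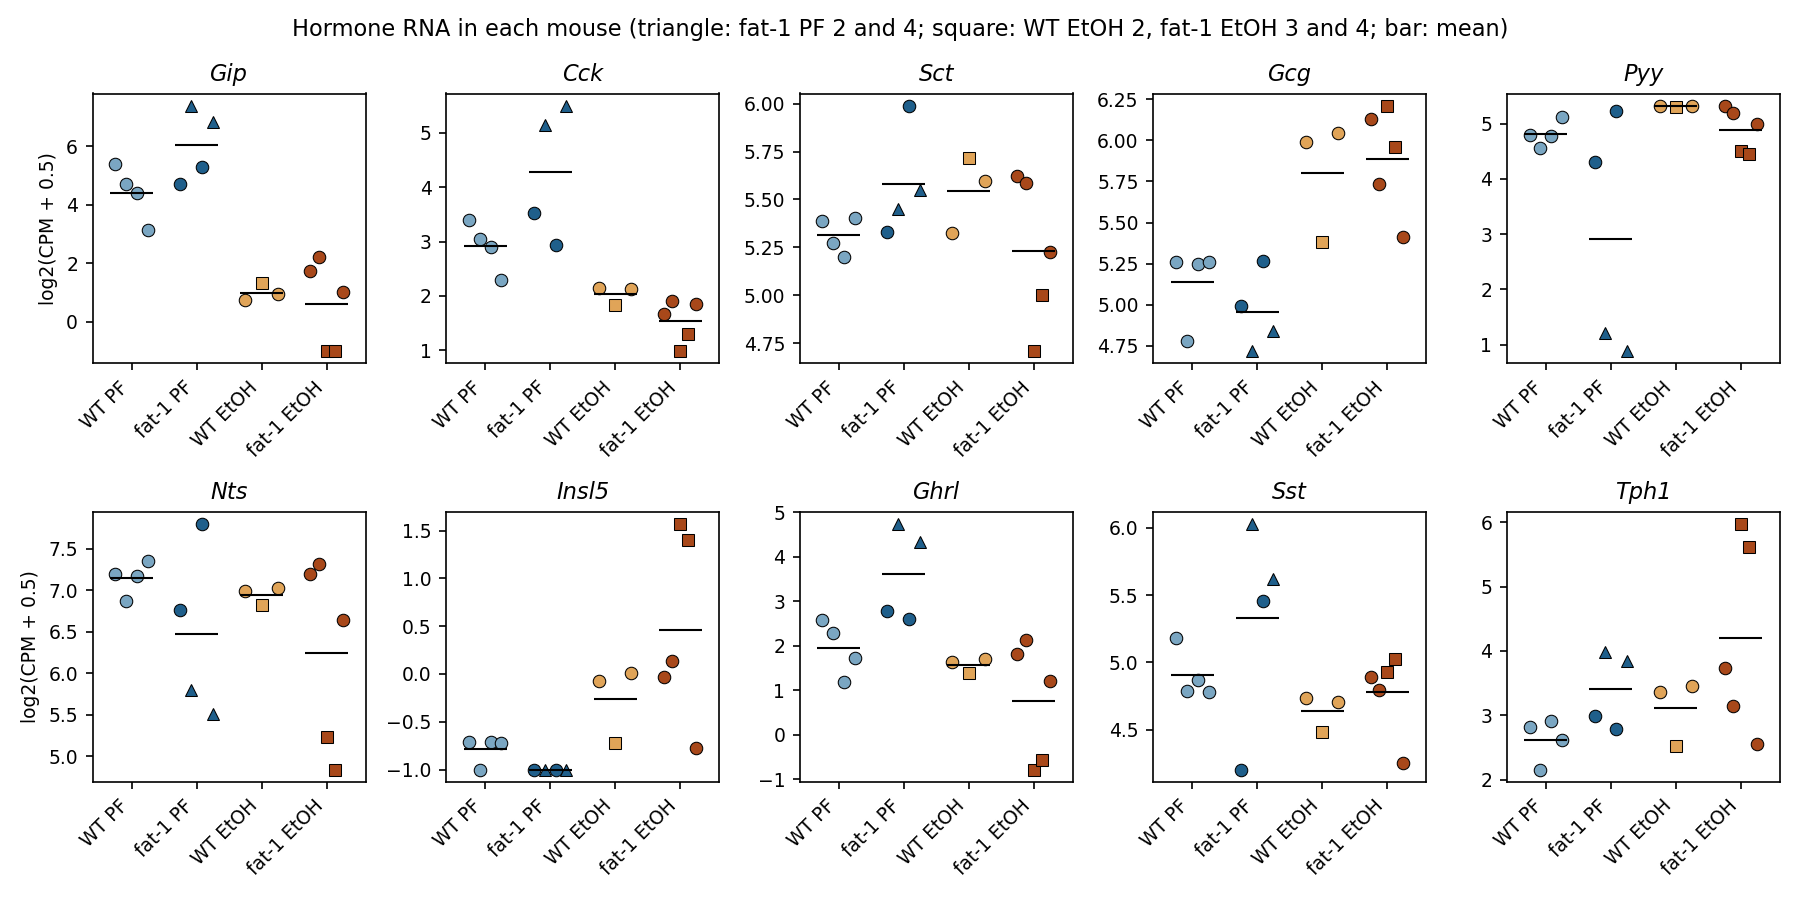
RNA level of the 10 hormone genes in each mouse as log2(CPM + 0.5), with an axis of its own for each gene. Points are single mice, the bar is the group mean, triangles are fat-1 PF mice 2 and 4 and squares are WT EtOH mouse 2 and fat-1 EtOH mice 3 and 4. Gip and Cck lie lower, and Gcg higher, in all 8 EtOH mice than in the 8 PF mice.

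Smooth muscle genes, and 6 of 12 nerve and glia genes, were higher in the same averaged comparison as Gcg, where 18.3% of all genes were higher and 17.6% lower. All 8 smooth muscle genes listed were higher, and their summed level ran from 1286 to 1718 CPM in WT PF, 1105 to 1635 CPM in fat-1 PF, 2333 to 3079 CPM in WT EtOH and 2204 to 4768 CPM in fat-1 EtOH mice. In WT mice none of the 8 smooth muscle and 12 nerve and glia genes passed by edgeR, where 0.0796% of all genes did. The sums of the nerve and glia genes overlapped between the diets, from 43.8 to 58.5 CPM in the PF mice and from 48.4 to 116 CPM in the EtOH mice. Genes found in the whole epithelium ran from 9531 to 16216 CPM over the 16 mice with overlapping groups, and 2 of the 8 were higher and none lower in the averaged comparison. When the libraries were scaled by 8 of these epithelial genes instead of by all genes, Gip, Cck and Ghrl passed as lower and Gcg as higher in fat-1 mice, and 23.9% of all genes passed. Their part in the change of Gcg was not tested.

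Pyy and Nts, the other hormones of the lower gut, did not pass in any ethanol comparison by edgeR with all 16 mice in the fit, and their spread came from a few mice. Pyy stood at 27.3, 23.1, 26.8 and 34.2 CPM in WT PF and at 39.4, 38.7 and 39.5 CPM in WT EtOH mice, so that the WT groups did not overlap, yet the log2 fold change of 0.49 ± 0.69 (SE) did not pass (edgeR adjusted p = 0.784). With only the WT mice fitted it was 0.50 and passed (adjusted p = 0.0395), as Gip, Cck and Gcg did. In fat-1 PF mice it stood at 19.3, 1.82, 36.9 and 1.35 CPM and in fat-1 EtOH mice at 39.3, 36.0, 22.3, 21.3 and 31.2 CPM. The 2 mice below 2 CPM were fat-1 PF 2 and 4, the same that lacked the ileal bile acid carrier. With limma voom and sample quality weights Pyy passed in fat-1 mice with a log2 fold change of 2.78 (adjusted p = 0.0048), against 1.02 ± 0.63 with edgeR, and the edgeR value was 0.11 without these 2 mice and 0.36 without the 5 mice that stood apart (adjusted p = 0.310). Without fat-1 PF mouse 3, which had the highest Pyy of its group, the edgeR value passed at 1.98 in fat-1 mice (adjusted p = 0.0262) and at 1.24 averaged (0.0344).

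Nts, the most abundant member per kilobase in 3 of the 4 groups, stood at 146, 117, 143 and 163 CPM in WT PF and at 126, 113 and 130 CPM in WT EtOH mice. In fat-1 PF mice it stood at 108, 55.3, 222 and 45.2 CPM and in fat-1 EtOH mice at 146, 159, 37.1, 28.2 and 99.4 CPM. Low values were found both in the 2 PF mice rich in proximal genes and in the 2 EtOH mice rich in colon genes. The fitted log2 change in fat-1 mice was -0.19 ± 0.50 (SE), and it was 0.35 without fat-1 EtOH mice 3 and 4, -0.80 without fat-1 PF mice 2 and 4 and -0.27 without all 5, with none of these passing.

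Insl5, a peptide of the colon and rectum, was nearly absent from PF mice. Its read counts were 1, 0, 1 and 1 in WT PF, 0 in each fat-1 PF, 5, 1 and 6 in WT EtOH and 5, 7, 30, 24 and 1 in fat-1 EtOH mice. The 2 largest counts were those of fat-1 EtOH mice 3 and 4. With 67 counts against 0, the mean in fat-1 EtOH mice was at least 3.04-fold higher than a floor of 3 counts per library in fat-1 PF mice. Mice 3 and 4 held 54 of the 67 counts, and without them the mean of 0.385 CPM was level with the floor of 0.379 CPM. The fat-1 groups did not overlap, as for 24% of all genes tested, 10.6% higher and 13.4% lower (log2(CPM + 0.5) difference of 1.46, exact permutation test, two-sided, p = 0.0159, the smallest this design allows, and 0.127 when adjusted over the 40 tests of 10 genes in 4 comparisons). In WT mice the ratio of 12 to 3 counts, corrected for library size, was 4.49 with a 95% interval of 1.21 to 24.8 for counting error alone.

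Tph1, which makes the serotonin precursor in enterochromaffin cells, stood out in 2 mice rather than in a group. It was at 6.56, 3.96, 6.998 and 5.61 CPM in WT PF, 7.42, 15.3, 6.42 and 13.9 CPM in fat-1 PF, 9.76, 5.25 and 10.4 CPM in WT EtOH and 12.8, 8.33, 62.1, 48.4 and 5.39 CPM in fat-1 EtOH mice. Fat-1 EtOH mice 3 and 4 were far above the rest, and the other 3 overlapped the PF mice. The log2 fold change in fat-1 mice was 1.35 ± 0.62 (SE, edgeR adjusted p = 0.0975) and was -0.25 without these 2 mice and 0.36 without all 5 that stood apart (adjusted p = 0.463). It passed without fat-1 EtOH mouse 2 or mouse 5 (adjusted p = 0.0494 and 0.0334) and with DESeq2 (0.0480). The gene nearest to Tph1 over the 16 mice was Chgb, which encodes the granule protein secretogranin-1, with a root mean square difference of 0.33 on the log2 scale. Chgb stood at 359 and 339 CPM in the same 2 mice and between 52.9 and 182 CPM in all others. Mast cells also carry Tph1. Of 10 mast cell genes 3 were tested, Mcpt1, Mcpt2 and Kit, and Kit was higher in the averaged comparison, a gene that pacemaker cells of the gut wall also carry. Kit stood at 87.1 and 68.1 CPM in fat-1 EtOH mice 3 and 4, the 2 mice with the most Tph1, and between 7.58 and 35.9 CPM in the others. Mcpt1 stood at 3.94 and 0.714 CPM in these 2 mice and at up to 4.24 CPM in the others, Mcpt2 at 1.78 CPM or less and Cpa3 at 0.561 CPM or less in every mouse. The 10 genes summed to between 15.02 and 23.1 CPM in the PF mice and between 27.3 and 93.2 CPM in the EtOH mice, and most of each sum was Kit. Without Kit the other 9 summed to between 2.51 and 7.44 CPM in the PF mice and between 1.87 and 6.07 CPM in the EtOH mice. The part of mast cells in the level of Tph1 was not tested.

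Sct and Sst varied least among the 9 tested members, with SDs of 0.29 and 0.46 on the log2 scale over the 16 mice. Sct ran from 36.3 to 63.0 CPM in the PF mice (median 41.6, n = 8) and from 25.7 to 52.1 CPM in the EtOH mice (median 43.6, n = 8), and its log2 fold change averaged over genotypes was -0.05 with a 95% interval of -0.34 to 0.24. In fat-1 mice it was -0.19 without the 5 mice that stood apart. Sst ran from 17.9 to 64.7 CPM in the PF mice (median 32.2, n = 8) and from 18.6 to 32.0 CPM in the EtOH mice (median 26.7, n = 8). In fat-1 mice Sst was at -0.67 ± 0.26 (SE) on the log2 scale (edgeR adjusted p = 0.0564, and 0.0391 with DESeq2), and the adjusted p was 0.0014 without fat-1 PF mouse 1, which had the lowest PF value, 0.696 without fat-1 PF mice 2 and 4 and 0.575 without all 5. In WT mice the 3 EtOH values of Sst lay below the 4 PF values, as did those of Gip and Cck, while those of Gcg and Pyy lay above. These were 5 of the 10 members, and 24.3% of all genes tested did not overlap in that comparison, 12.2% higher and 12.1% lower.

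**Figure D3:**
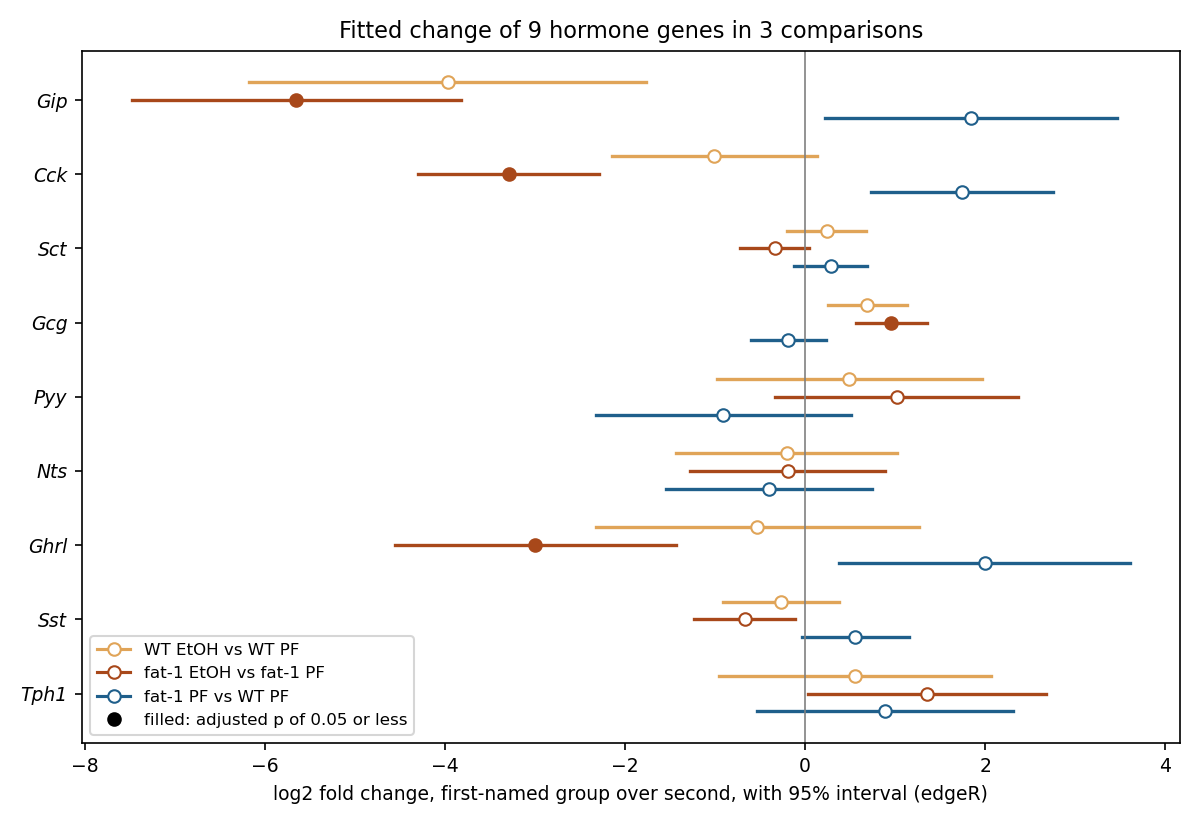
Fitted log2 fold change of the 9 tested hormone genes, first-named group over second, in 3 comparisons. Lines are 95% intervals of the edgeR fit and filled points have an adjusted p of 0.05 or less. Gip, Cck and Ghrl lie to the left and Gcg to the right as filled points in fat-1 mice only, and the WT and fat-1 PF intervals hold no filled point.

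The genotypes were compared within each diet to ask what the transgene alone changed. Between the pair-fed groups none of the 9 members passed by edgeR, DESeq2 or limma voom, and 0% of all genes did by edgeR, with 1758 genes at an unadjusted p under 0.05. DESeq2 called 189 genes there and limma voom 30. The largest values were those of Ghrl (log2 fold change 1.99 ± 0.75, SE, edgeR adjusted p = 0.281), Gip (1.84 ± 0.76, adjusted p = 0.328) and Cck (1.74 ± 0.47, adjusted p = 0.187). Ghrl was the 1 member whose 2 PF groups did not overlap, and 6.87% of all genes tested did not overlap, 4.25% higher and 2.62% lower in fat-1 PF mice. Without the 5 mice these values were 0.72, 0.40 and 0.31. Cck passed when fat-1 PF mouse 3 was left out (log2 fold change 2.04, adjusted p = 0.0381).

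Under ethanol none of the 9 members passed between the genotypes by the 3 tools, with 0.00724% of all genes passing by edgeR and 671 at an unadjusted p under 0.05. Tph1 was at 1.69 ± 0.69 (SE) on the log2 scale (edgeR adjusted p = 0.757). None of the 10 members had EtOH groups that did not overlap, where 2.45% of all genes tested had such groups, 1.43% higher and 1.02% lower. None of the 9 passed the test of genotype by diet, in which 1141 genes had an unadjusted p under 0.05 and DESeq2 and limma voom called 0. An ethanol effect that passed in fat-1 mice and not in WT mice is therefore not shown to differ between them.

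The members were set against each other by CPM per kilobase of exon. In WT PF mice the order was Nts (114 ± 15.1, SD, n = 4), Sct (61.1 ± 4.08), Pyy (44.1 ± 7.34), Sst (41.1 ± 5.86), Gip (34.9 ± 19.9), Gcg (23.4 ± 3.6), Cck (5.60 ± 1.80), Ghrl (3.35 ± 1.52), Tph1 (0.937 ± 0.218) and Insl5 (0.112 ± 0.0748). The ranges of mean ± SD overlapped between neighbours from Pyy to Gcg and between Cck and Ghrl, and not between the other neighbours. In WT EtOH mice Gip was at 2.23 ± 0.618 (SD, n = 3), level with Cck at 2.77 ± 0.381 and Ghrl at 2.31 ± 0.324, while Gcg rose in the order to 37.8 ± 8.96 beside Sst at 34.0 ± 3.26. In fat-1 PF mice Gip led at 126 ± 96.8 (SD, n = 4), with an SD that covered Nts at 86.2 ± 64.8, Sct at 74.6 ± 15.98 and Sst at 60.6 ± 26.9. That lead came from mice 2 and 4, where Gip made up 47.0% and 39.8% of the summed level of the 10 genes and Nts 8.56% and 8.67%. In mice 1 and 3 Gip made up 13.5% and 11.4% and Nts 31.2% and 36.5%. In fat-1 EtOH mice Nts led again at 75.3 ± 48.3 (SD, n = 5), within its SD of Sct at 59.0 ± 15.5, Pyy at 47.6 ± 12.8, Gcg at 40.1 ± 8.53 and Sst at 38.0 ± 7.24.

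The make-up of the hormone RNA differed with diet, while the ranges of its sum overlapped. The 10 genes summed to between 277 and 518 CPM per kilobase in the PF mice and between 203 and 354 in the EtOH mice. Gip, Cck and Ghrl together made up 56.8% and 52.4% of that sum in fat-1 PF mice 2 and 4, 5.41% to 19.5% in the other 6 PF mice and 0.574% to 3.52% in the EtOH mice. The ratio of Gip to Gcg per kilobase was between 0.472 and 14.1 in the PF mice and at most 0.172 in the EtOH mice. Gcg, Pyy, Nts and Insl5 made up 49.7% to 63.5% in the PF mice other than fat-1 PF 2 and 4, and 49.4% to 66.0% in the EtOH mice.

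**Figure D4:**
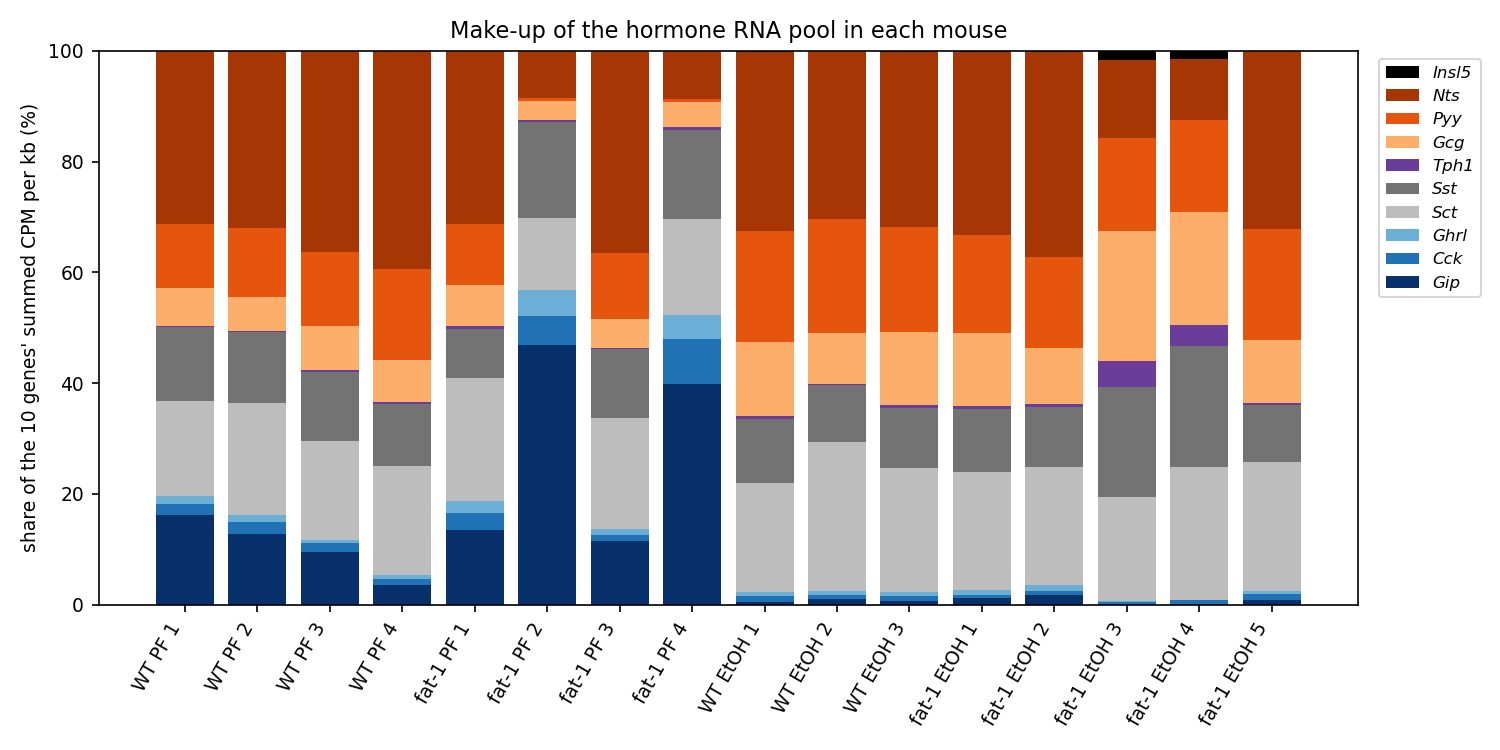
Share of each hormone gene, in percent, in the summed CPM per kilobase of the 10 genes, with 1 bar per mouse. Gip, Cck and Ghrl (blue) make up 56.8% and 52.4% in fat-1 PF mice 2 and 4 and at most 3.52% in the EtOH mice.

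Genes that act in the same cells did not follow 1 direction. Of 18 transcription factors of enteroendocrine cells 14 were tested, and in the averaged ethanol comparison 3 were higher (Foxa1, Etv1 and St18) and 1 was lower, against 18.3% and 17.6% of all genes. These counts are near or below those shares. The lower one was Neurog3, the factor that commits crypt cells to the endocrine fate. It ran from 1.35 to 2.00 CPM in WT PF, 1.23 to 2.82 in fat-1 PF, 0.63 to 1.34 in WT EtOH and 0.574 to 1.25 CPM in fat-1 EtOH mice. Its log2 fold change was -0.98 ± 0.24 (SE, edgeR adjusted p = 0.0057), from 6 to 24 counts per mouse, and it was -0.83 without the 3 EtOH mice rich in Car1 (adjusted p = 0.0191). The median of the 14 was 0.10 and that of all genes 0.04. When the 2 PF mice that stood apart were left out as well, it was -0.70 (adjusted p = 0.0681), and 3 factors were higher and none was lower, against 12.9% and 14.7% of all genes.

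Of 18 granule and processing genes 16 were tested, and with ethanol averaged over genotypes 9 were higher and 2 lower, where 18.3% of all genes were higher and 17.6% lower, with a median log2 fold change of 0.57 against 0.04 for all genes. The higher ones included the prohormone convertases Pcsk1 (0.82 ± 0.17, SE) and Pcsk2 (1.41 ± 0.36), which cut hormones from their precursors, Pam (0.57 ± 0.12), which amidates them, the vesicle amine transporter Slc18a2 (1.14 ± 0.32) and the vesicle protein Rab3c (1.19 ± 0.21). Neurons make several of these as well, and the nerve and glia genes, 6 of 12 of them higher, had a median of 0.74 in this comparison. The part of nerve RNA in the granule genes was not tested. Pcsk1 was at 41.8 and 42.2 CPM in fat-1 EtOH mice 3 and 4 and between 17.4 and 26.7 CPM in the other EtOH mice, against 12.6 to 19.7 CPM in the PF mice. The lower ones were Ddc (-1.10 ± 0.16), which completes serotonin synthesis and is also made by enterocytes, and the enterochromaffin amine transporter Slc18a1 (-0.56 ± 0.15). Without all 5 mice that stood apart, 6 were higher and 2 lower, against 12.9% and 14.7% of all genes, and in fat-1 mice alone the count went from 10 higher and 2 lower to 0 higher and 2 lower. Over all genes the calls in fat-1 mice fell as well, from 18.7% higher and 18.8% lower to 4.27% and 7.59%.

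Chga, the general granule gene of endocrine cells, did not pass with all mice (averaged log2 fold change -0.16 ± 0.35, SE, edgeR adjusted p = 0.745). It stood at 200 and 228 CPM in fat-1 EtOH mice 3 and 4, between 38.1 and 57.4 CPM in the other 6 EtOH mice and between 51.9 and 133 CPM in the PF mice. Without the 3 EtOH mice rich in Car1 it was lower with ethanol by 0.73 on the log2 scale (adjusted p = 0.0036), a fit chosen after the high values were seen.

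Receptors and enzymes that the hormones act on were listed too. Of 27 receptors, uptake and breakdown genes 13 were tested, and 5 were higher and 2 lower in the averaged comparison, against 18.3% and 17.6% of all genes. Npy4r, a receptor of the Pyy and pancreatic polypeptide family, stood between 0.111 and 0.727 CPM in the PF mice (1 to 7 counts) and between 1.81 and 10.8 CPM in the EtOH mice (19 to 121 counts), with no overlap. Its log2 fold change was 3.80 ± 0.53 (SE, edgeR adjusted p = 3.3e-04), and 2.99 without the 5 mice that stood apart (adjusted p = 0.0016). Npy4r had enough counts to be tested through the EtOH mice alone, so its adjusted p and lack of overlap are not support apart from that selection. It was highest in fat-1 EtOH mice 3 and 4. Mme, the brush border peptidase neprilysin, went the other way at -2.90 ± 0.78, from between 288 and 1815 CPM in the PF mice to at most 256 CPM in the EtOH mice. Htr4, Npy1r, Sort1 and Htr3a were also higher and Maoa was lower. Dpp4, which inactivates Gip and GLP-1, stood at 68.5 and 73.3 CPM in fat-1 EtOH mice 3 and 4 and at 1041 CPM or more in the others.

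Sensors of nutrients were tested in 14 of 19 cases, with 3 higher (Olfr78, Abcc8 and Cnr1) and 2 lower in the averaged comparison, near the 18.3% and 17.6% of all genes. The lower ones were Slc5a1 (-1.63 ± 0.44, SE), the glucose transporter whose activity triggers incretin release and which enterocytes also use, and Lpar5 (-0.95 ± 0.21). In fat-1 mice alone 6 were higher and 2 lower, where 18.7% of all genes were higher and 18.8% lower, and the 6 included the fatty acid receptors Ffar2 and Ffar4, which stood at 22.6 and 21.1 CPM and at 37.6 and 22.4 CPM in mice 3 and 4 and at no more than 7.10 and 12.7 CPM elsewhere. Without those 2 mice 1 sensor was higher and 2 were lower in fat-1 mice, against 14.7% and 16% of all genes. Of 13 other peptide hormones 10 were tested, and in the averaged comparison 2 were higher and 1 lower, near or below the 18.3% and 17.6% of all genes. These were Grp and Penk, and Guca2b, a peptide that drives salt and water secretion, at -2.04 ± 0.48. In WT mice none of the genes of these 5 lists passed by edgeR with all 16 mice in the fit. With only the WT mice fitted, 0 of 12 transcription factors, 4 of 16 granule genes, 3 of 11 sensors, 3 of 10 receptors and 1 of 7 other hormones passed, with 8.32% of all genes. Limma voom called 5 of 16 granule genes, 3 of 14 transcription factors, 6 of 14 sensors, 4 of 13 receptors and 3 of 10 other hormones, with 20.7% of all genes.

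**Figure D5:**
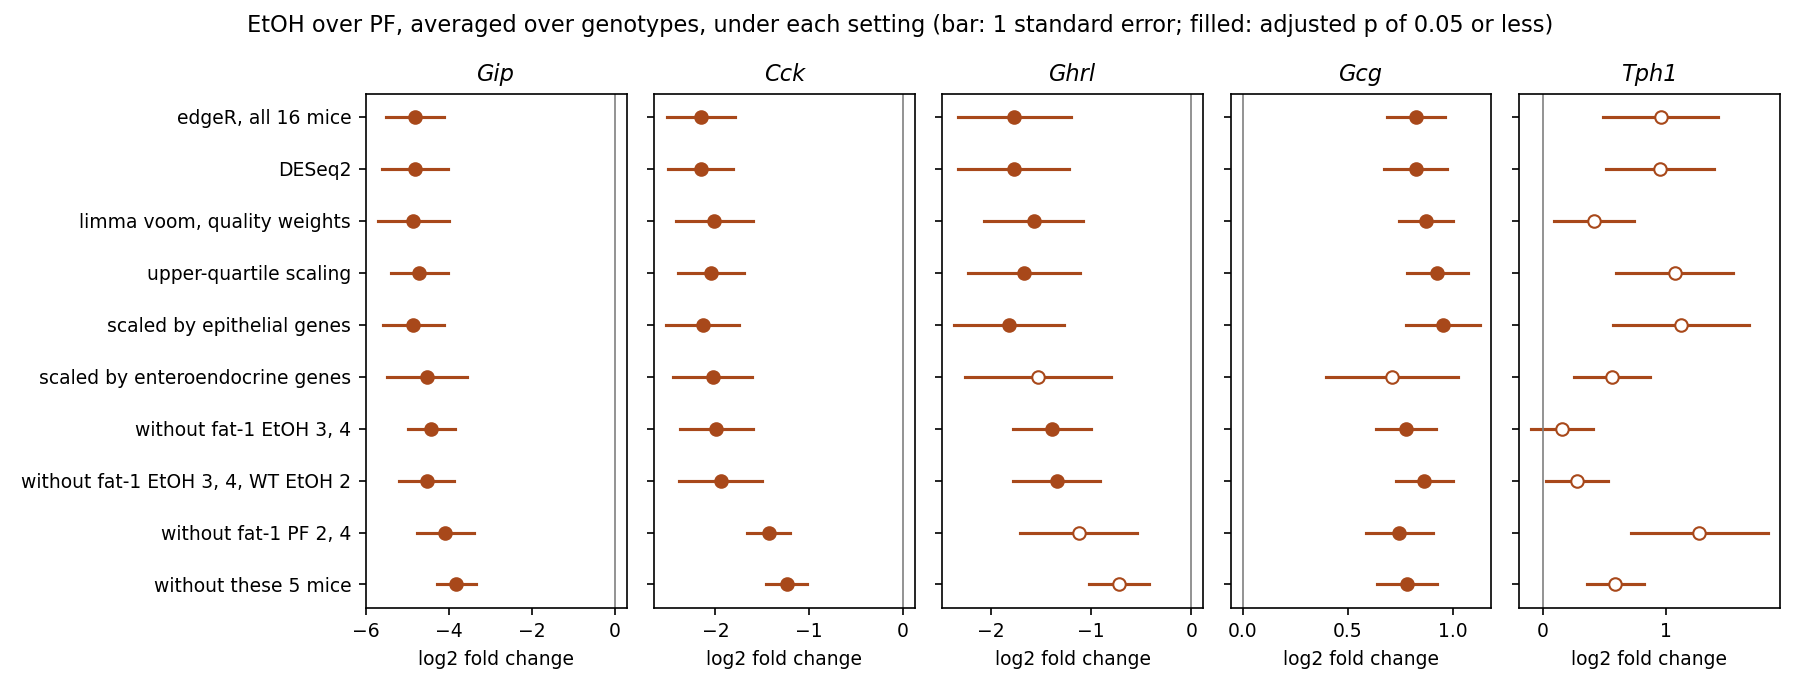
Log2 fold change of EtOH over PF mice, averaged over genotypes, for 5 hormone genes under 10 settings, with an axis of its own for each gene. Points are fitted values, lines are 1 standard error and filled points have an adjusted p of 0.05 or less. Gip and Cck stay filled in each setting shown, Ghrl is open when fat-1 PF mice 2 and 4 are left out and when the libraries are scaled by endocrine genes, Gcg is open under that scaling, and Tph1 is open throughout.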

How the data were processed

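RNA was extracted from a segment of the terminal ileum, poly(A)-selected and sequenced as stranded libraries. The authors aligned reads to mm10 with tophat2 and deposited raw counts per Ensembl gene made with htseq, and the strand setting is not given in the sources used here. The submitters' processing notes also name FastQC 0.10.1. From these counts, CPM over TMM-scaled library sizes, log2 fold changes and tests were computed with edgeR 4.0.16 (R 4.3.3). The test was the quasi-likelihood test with robust spread and 1 mean per group over all 16 libraries, with filterByExpr and Benjamini-Hochberg adjustment at 0.05 over 13811 genes. Single genes were also compared by exact permutation of log2(CPM + 0.5). Alternatives used DESeq2 1.42.0, limma 3.58.1 voom, other scalings and filters, and fewer libraries. Symbols, positions and exon lengths came from GENCODE M21 on GRCm38, in which 26 of 21965 genes are absent. Promoters came from RefSeq GRCm38.p6. Figures used matplotlib 3.10.9 and Python 3.11.15. The fitting code was also run on simulated counts, and the outcome is not reported here.

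The libraries held 8422645 to 11438539 counts, so that 3 counts were 0.246 to 0.421 CPM. Nothing in the labels says that mice of a group came from separate litters or cages, and p-values measure the spread between these mice.

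The 10 members, the gene lists and the lists' names were chosen with earlier results of these data known. All 10 members are named in each comparison, with up to 8 called genes of each pathway list that had the largest changes with ethanol, Chga and Neurog3, and for each tested member up to 3 genes with the least root mean square difference of centred log2 CPM (prior count 2). Genes named as describing a library, and Dpp4, were chosen after their values were seen. Like Npy4r, the genes Pcsk2, Grp, Olfr78, Aqp8 and Scnn1b stood at 1.00 CPM or less in every PF mouse. They had enough counts to be tested only because of EtOH mice. Lists of proximal, ileal, large intestinal, stomach, pancreas, mast cell, nerve, epithelial and smooth muscle genes marked other tissue. A listed gene is not reported here and was left out of its list.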

Additional observations from a re-analysis of the deposited data

Results flagged for a closer look

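Gcg in WT PF mouse 2 (26.9 CPM) lay below the other 3 WT PF mice, which held 37.4 to 37.8 CPM. The gap to the nearest mouse was 0.969 of the range of the group, above the 95% limit that Dixon's test sets for 4 samples. Insl5 in the same mouse was at 0 CPM, with 0 counts against 1 count in each of the other 3, a difference of a single read. Dixon's test was run on 29 groups of 4 or 5 mice and marked these 2, and chance marks about 1 in 20 such groups.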

How the results depend on the processing

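No called member changed sign in any setting, and 1491 of 1590 member fold changes kept both direction and call. With DESeq2, limma voom, only the 2 groups, fat-1 EtOH mice 3 and 4 left out, or all 5 mice left out, the members called in WT mice were 1, 2, 4, 1 and 2 instead of 0, while the calls over all genes were 257, 2853, 1103, 273 and 468 instead of 11. Leaving out these 5 mice was chosen after seeing the data. In fat-1 mice 1 was called when scaled by endocrine genes, 2 with at least 10 counts in every mouse (7 members tested) and 2 without the 5 mice, instead of 4, with 248, 4519 and 1626 calls over all genes instead of 5170. Averaged over genotypes the first 2 of these settings gave 2 and 2, with 294 and 4364 calls over all genes instead of 4955. With 1 mouse left out the counts were 0 to 0 in WT mice, 4 to 5 in fat-1 mice, 3 to 5 averaged, 0 to 1 between the PF groups (1 without fat-1 PF mouse 3), and 0 in the other comparisons. The calls over all genes ran from 0 to 66, 3928 to 5430, 3798 to 5245 and 0 to 114 (114 without fat-1 PF mouse 3). The members gained were Pyy, Sst, Tph1 and, where it could be tested, Insl5 with ethanol, and Cck between the PF groups, and Ghrl was lost averaged. The cause of these changes was not tested.

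Same-numbered mice of different groups did not deviate together (mean correlation -0.0225 over 21 pairs, 0.00703 over 74 other pairs). The numbers were taken to name mice and not to pair them, though such means cannot exclude pairing by feeding or handling. A replicate block gave 1 member in WT mice (Gcg, log2 fold change 0.67, edgeR adjusted p = 0.0403), 4 in fat-1 mice, 4 averaged and 0 in the other comparisons, with 18, 4748, 4836 and 0 calls over all genes.

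Upper-quartile and epithelial scaling moved the median log2 change of all genes to 0.20 and 0.22 in fat-1 mice and to 0.14 and 0.16 averaged. Epithelial scaling moved it to 0.21 and 0.34 between the genotypes on PF and on EtOH, and endocrine scaling to -0.44 and -0.38. The values below changed sign, none of them called before. Averaged over genotypes, Sct was 0.020 with limma voom, 0.047 with upper-quartile and 0.042 with epithelial scaling, 0.079 without fat-1 EtOH mice 3 and 4 and 0.031 without WT EtOH mouse 2 as well, and Nts was 0.20 with limma voom and 0.074 and 0.10 without these mice. In fat-1 mice Nts was 0.56 with limma voom and 0.35 and 0.35 without the same mice, and Tph1 was -0.25 and -0.25. Between the PF groups Sct was -0.16 with endocrine scaling, and Nts was 0.20 without fat-1 PF mice 2 and 4 and 0.20 without all 5. Between the EtOH groups endocrine scaling gave Gcg -0.39 and Sst -0.34. Without fat-1 EtOH mice 3 and 4, then WT EtOH mouse 2 as well, then all 5, Gcg was -0.053, -0.23 and -0.24, Nts 0.13, 0.073 and 0.066, and Ghrl 0.22, 0.12 and 0.11. The last 2 of these gave Sct 0.020 and 0.013, Sst -0.053 and -0.059, and Tph1 -0.19 and -0.20. In the test of genotype by diet, Tph1 was -0.39 with limma voom and -0.81, -1.05 and -0.45 in those 3 fits, Gcg was -0.017 and -0.21 in the last 2, and Gip was 0.72 without the 5 mice. Without fat-1 PF mice 2 and 4, and without all 5, Pyy was -0.39 and -0.15 and Nts -0.60 and -0.13, and Sst was 0.11 in the first. With 1 mouse left out, Gip ran from -0.50 to 0.49 and Gcg from -0.10 to 0.20 between the EtOH groups, Sct from -0.095 to 0.039 and Nts from -0.34 to 0.12 averaged, Nts from -0.47 to 0.45 in fat-1 mice and from -0.26 to 0.65 in the test of genotype by diet. Changing the pseudocount to 1 moved none of the 40 permutation tests across 0.05. Depth limits Insl5, Npy4r in PF mice and Gip in EtOH mice, where 3 counts are 0.246 to 0.421 CPM.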
